A study of Mus musculus with 6 samples.

Results

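The genes described here are 10 transcripts of the cellular response to salt and osmotic load, read in splenic CD4+ T cells of mice given angiotensin II (AngII) and of control mice. They are the transcription factor Nfat5, the kinase Sgk1, the osmolyte genes Slc6a6, Akr1b3, Slc5a3 and Slc38a2, the kinases Wnk1, Stk39 and Oxsr1, and the ion cotransporter Slc12a2. They were chosen by name from a fixed list, 10 of the 39171 Ensembl genes in the library files. The only measured value in that rule was the mean FPKM, to choose between rows that share a name, and this arose for 0 of the 10. The gene name column of the files held 9 of them, 1 row each, and Slc5a3 was found by its Ensembl identifier because its name cell is blank. FPKM is the number of sequenced fragments scaled to transcript length and library size. All 10 averaged 1 FPKM or more over the 6 libraries, the limit for testing that 11842 genes passed. The list was put together with earlier results on these libraries known, among them a higher Slc6a6 level in AngII, so the differences below describe the genes and are not independent evidence.

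The AngII group was 3 C57BL/6 mice of premenopausal age that received angiotensin II, the peptide hormone that raises blood pressure and promotes sodium retention, at 800 ng/kg/min for 14 days from an osmotic minipump, starting at 10 weeks of age. The Control group was 3 C57BL/6 mice of the same age, labelled untreated and kept for the same 2 weeks. The labels do not say whether control mice carried a pump. CD4+ T cells were taken from spleen with a magnetic isolation kit, and each mouse gave 1 RNA-seq library. In such bulk RNA, fewer cells of a type and less RNA per cell cannot be told apart.

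NFAT5, also called TonEBP, is the transcription factor through which mammalian cells adapt to hypertonic surroundings. It switches on transporters and enzymes that fill the cell with harmless osmolytes: taurine (Slc6a6), myo-inositol (Slc5a3), sorbitol (Akr1b3) and neutral amino acids (Slc38a2). SGK1 is a kinase whose transcription responds to salt, glucocorticoids and mineralocorticoids, and in mouse CD4+ T cells raised salt acts through the kinase p38, NFAT5 and SGK1 to favour the Th17 state. WNK1 senses chloride and cell volume and activates SPAK (Stk39) and OSR1 (Oxsr1), which switch on sodium, potassium and chloride uptake by NKCC1 (Slc12a2) and switch off potassium and chloride export by the KCC cotransporters.

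The Sgk1 gene has several start sites. The promoter window of 1 of them holds the full palindromic glucocorticoid response element, the sequence bound by the glucocorticoid and mineralocorticoid receptors, and is shown because hormone control of Sgk1 links the renin-angiotensin-aldosterone system to this gene. The window is chr10:21993640-21993939, plus strand, RefSeq sequence on GRCm38.p6, from 250 bases before to 50 bases after the start at 21993890. Capitals mark the element, at 21993701 to 21993715 on chromosome 10, 189 to 175 bases upstream of the start.
Sgk1 promoter window: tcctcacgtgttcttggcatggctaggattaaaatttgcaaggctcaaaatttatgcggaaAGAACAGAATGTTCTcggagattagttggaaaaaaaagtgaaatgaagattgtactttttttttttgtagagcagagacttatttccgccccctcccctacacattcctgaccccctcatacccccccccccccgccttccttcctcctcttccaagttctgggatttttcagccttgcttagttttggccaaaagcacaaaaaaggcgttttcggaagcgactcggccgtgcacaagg
The motif searched was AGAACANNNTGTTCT, which reads the same on both strands. It stood in 3 of 32851 promoter windows of the mouse genome (0.00913%), and in 1 of the 12 windows that the RefSeq table holds for 7 of the 10 genes, 6 of which belong to Sgk1. The short core TGGAAA, shared by NFAT proteins and NFAT5 and searched on both strands, stood in 3 of the 12 windows (2 of Sgk1 and 1 of Stk39) and in 21.4% of all windows. A match is a description of the letters and says nothing about binding in these cells.

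The libraries had the defining transcripts of helper T cells, together with transcripts of other spleen cells, some of them as abundant. Cd4 was at 238, 214 and 232 FPKM in AngII replicates 1 to 3 and at 254, 229 and 203 FPKM in Control replicates 1 to 3. The CD4 T cell list summed to 4670 to 5334 FPKM over its 10 genes in AngII and 4680 to 5567 FPKM in Control. Ighm of B cells and Hmox1 of macrophages had higher means than Cd4 over the 6 libraries, 752 and 546 FPKM. No gene of the 11 marker lists was at 0 in all libraries. Cd8a of cytotoxic T cells stayed between 0.396 and 1.67 FPKM in AngII and between 0.639 and 1.01 FPKM in Control. Cd8b1 was higher, at 9.33 to 12.0 FPKM in AngII and 10.1 to 10.7 FPKM in Control, as was Nkg7 of cytotoxic and NK cells, at 65.6 to 76.8 FPKM in AngII and 66.2 to 100.2 FPKM in Control. Several marker lists of other cell types leaned one way between the groups, although the ranges of their summed FPKM overlapped and 0 of their genes passed limma. The neutrophil list (6 of 7 tested genes higher, median log2 fold change 1.35) summed to 26.1, 78.5 and 75.7 FPKM in AngII replicates 1 to 3 and 9.49, 10.8 and 45.0 FPKM in Control replicates 1 to 3. The megakaryocyte and platelet list (7 of 7 higher, median 0.56) summed to 175 to 241 FPKM in AngII and 105 to 276 FPKM in Control. The B cell (8 of 8, median -0.17), NK cell (6 of 6, median -0.32) and CD8 T cell (4 of 4, median -0.20) lists had only negative log2 fold changes among their tested genes. Their sums were 584 to 947 FPKM in AngII and 657 to 1157 FPKM in Control for B cells, 60.9 to 92.4 FPKM in AngII and 73.5 to 112.5 FPKM in Control for NK cells, and 82.5 to 97.8 FPKM in AngII and 86.3 to 123.3 FPKM in Control for CD8 T cells. Medians of the plasma cell, dendritic cell, erythroid and stromal lists were -0.10, -0.09, 0.24 and 0.27. Macrophage and monocyte genes had 8 of 10 positive values (median 0.13), and their sum was highest in AngII replicate 2, 2525 FPKM, against 1296 and 1246 FPKM in AngII replicates 1 and 3 and 989 to 1758 FPKM in Control. The part of these cells in the values of the 10 genes was not tested.

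None of the 10 genes passed the test for a difference between AngII and Control. In limma on log2(FPKM + 1), with Benjamini-Hochberg adjustment over all 11842 genes and a threshold of 0.05, 0 of 10 passed, with an adjusted p of 0.9999 for each. Over all genes 4 passed (0.0338%). At an unadjusted p under 0.05 the count was 1 of 10, Slc6a6, against 1.76% of all genes. The AngII and Control libraries did not overlap for 3 of the 10 genes: Slc6a6 and Sgk1 were higher in each AngII library (2.36% of all genes tested were) and Akr1b3 was lower in each (3.48% of all genes). The median log2 fold change of the 10 was -0.02, against -0.004 over all genes tested. Medians of several cell marker lists lay farther from 0 than the value of any of the 10 genes. These lists were neutrophil (1.35), megakaryocyte and platelet (0.56), NK cell (-0.32), and stromal and endothelial (0.27, with 2 tested genes). The same held for the immediate early and stress list (-0.35). The part of these lists in the values of the 10 genes was not tested.

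**Figure D1:**
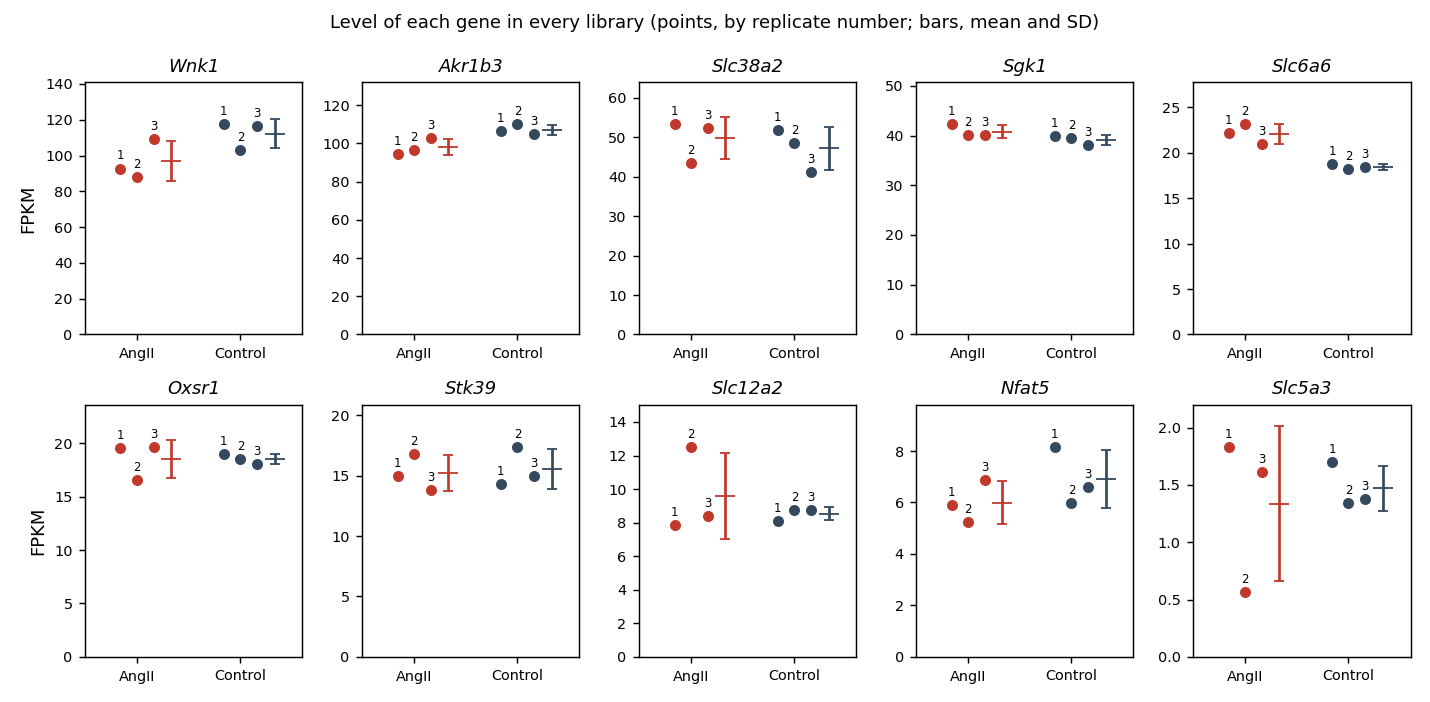
FPKM (y axes, each from 0) of the 10 genes in the 3 AngII and 3 Control libraries, ordered by mean level; points carry the replicate number, bars give mean and SD. Slc6a6 lies between 20.9 and 23.1 FPKM in AngII and between 18.2 and 18.7 in Control, while Sgk1 stays between 38.0 and 42.2 FPKM in all 6 libraries.

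Nfat5 (ENSMUSG00000003847, GRCm38 chromosome 8, 107293470 to 107379517, plus strand), the regulator itself, was expressed at a low level. It was at 5.89, 5.23 and 6.87 FPKM in AngII replicates 1 to 3 and at 8.17, 5.97 and 6.60 FPKM in Control replicates 1 to 3. The groups overlapped, and Control replicate 1 was the highest library. The mean was 5.99 ± 0.824 FPKM in AngII and 6.91 ± 1.13 FPKM in Control (SD, n = 3 each), a log2 fold change of -0.17 (95% interval -0.51 to 0.16), which did not pass limma. Without Control replicate 1 it was -0.06.

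Nfat5 was the lowest of the 4 NFAT genes above the limit for testing. The calcineurin-dependent factors, which carry T cell receptor signals, had means over the 6 libraries of 76.4 FPKM (Nfatc3), 66.5 FPKM (Nfatc1) and 21.0 FPKM (Nfatc2), against 6.45 FPKM for Nfat5. Nfatc4 stayed at or below 0.0448 FPKM. The ratio of Nfatc3 to Nfat5 was 13.0, 14.2 and 12.2 in the AngII libraries and 9.70, 12.9 and 10.3 in the Control libraries, which overlapped.

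Genes that act upstream of NFAT5 lay close to Control. Mapk14, the p38 alpha kinase, was at 67.2 to 73.9 FPKM in AngII and 71.1 to 74.7 FPKM in Control. Fyn, a Src family kinase of T cells that also acts on NFAT5, was at 168, 168 and 171 FPKM in AngII replicates 1 to 3 and at 184, 174 and 167 FPKM in Control replicates 1 to 3. Akap13, an anchoring protein known as Brx that drives Nfat5 induction, ranged from 50.5 to 61.9 FPKM in AngII and from 46.0 to 68.8 FPKM in Control. Of the 16 tested genes of this list other than Nfat5, 5 had a positive and 11 a negative log2 fold change, with 0 past limma, 0 at an unadjusted p under 0.05 and a median of -0.03. The 3 of smallest p were Ccm2, a scaffold of p38 signalling in osmotic stress, at -0.11, Prkaca, the protein kinase A catalytic subunit, at -0.06, and Fyn at -0.05.

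The osmolyte genes did not move one way. Slc6a6 (ENSMUSG00000030096, chromosome 6, 91684053 to 91759066, plus strand), the sodium- and chloride-coupled taurine transporter, was at 22.2, 23.1 and 20.9 FPKM in AngII replicates 1 to 3. In Control replicates 1 to 3 it was at 18.7, 18.2 and 18.4 FPKM. Each AngII library was above each Control library, with a gap of 2.21 FPKM between the groups. The mean was 22.1 ± 1.10 FPKM in AngII and 18.4 ± 0.277 FPKM in Control (SD, n = 3 each), a log2 fold change of 0.25 (SE 0.06, 95% interval 0.10 to 0.39, not adjusted for the number of genes). It did not pass limma (adjusted p = 0.9999). In the authors' deposited table, whose conditions are named only by number and from which no direction was taken, Slc6a6 had p = 0.04485 and q = 0.999918.

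Akr1b3 (ENSMUSG00000001642, chromosome 6, 34302434 to 34317478, minus strand) encodes aldose reductase, which makes sorbitol from glucose. It was at 94.6, 96.7 and 102.9 FPKM in AngII replicates 1 to 3, against 106.5, 109.9 and 104.9 FPKM in Control replicates 1 to 3. Each AngII library was below each Control library, by at least 2.04 FPKM. The mean was 98.1 ± 4.28 FPKM in AngII and 107.1 ± 2.57 FPKM in Control (SD, n = 3 each), with a log2 fold change of -0.13 (95% interval -0.26 to 0.01) that did not pass. An antisense gene, Gm14546, covers this locus and stayed at or below 0.0188 FPKM in each library.

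Slc6a6 and Akr1b3, a pair of textbook NFAT5 targets, thus stood on opposite sides of Control. The ratio of their FPKM, taken within each library, was 0.234, 0.239 and 0.204 in the AngII libraries and 0.176, 0.165 and 0.175 in the Control libraries. The ratio was higher in each AngII library. It combines the 2 genes chosen for their lack of overlap after their values were seen, so no test is given.

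Slc38a2, the SNAT2 transporter of small neutral amino acids, was at 53.3, 43.6 and 52.4 FPKM in AngII replicates 1 to 3 and at 51.9, 48.6 and 41.2 FPKM in Control replicates 1 to 3. The groups overlapped throughout. Its log2 fold change was 0.07 (95% interval -0.21 to 0.36), and -0.02 without Control replicate 3. Its paralog Slc38a1 averaged 22.0 FPKM over the 6 libraries, and Slc38a4, the third transporter of system A, was at 0 in 5 of the 6 libraries and at 0.0169 FPKM in Control replicate 2.

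Slc5a3 (ENSMUSG00000089774, chromosome 16, 92058322 to 92087473, plus strand), the sodium- and myo-inositol cotransporter, was the lowest of the 10 genes. It was at 1.83, 0.562 and 1.62 FPKM in AngII replicates 1 to 3 and at 1.70, 1.34 and 1.38 FPKM in Control replicates 1 to 3. AngII replicate 2 was the lowest library, and the other values overlapped. The log2 fold change was -0.13 (95% interval -0.74 to 0.49), and 0.14 without AngII replicate 2. Slc5a3 lies within Mrps6, a gene of the mitochondrial ribosome on the same strand, and the authors' deposited table lists both in 1 row (p = 0.16155, q = 0.999918), so their fragments may not be fully separated. Mrps6 was at 29.8, 26.4 and 29.9 FPKM in AngII replicates 1 to 3, against 36.2, 37.5 and 31.7 FPKM in Control replicates 1 to 3.

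Other NFAT5 target and osmoprotective genes had values on both sides of Control. Of 9 tested genes of that list other than the 10, 4 had a positive and 5 a negative log2 fold change, with 0 past limma and a median of -0.13. Tnf, a cytokine gene with NFAT5 sites, was at 4.04, 4.95 and 4.04 FPKM in AngII replicates 1 to 3 and at 5.29, 5.58 and 5.03 FPKM in Control replicates 1 to 3. Its groups did not overlap, and the log2 fold change of -0.24 did not pass (adjusted p = 0.9999), although its unadjusted p was 0.0457. Lta, lymphotoxin alpha, had a log2 fold change of -0.13, and the heat shock gene Hspa1a had -0.43 with AngII values of 1.18 to 1.59 FPKM inside the Control range of 1.08 to 3.94 FPKM. Hspa1b had -0.58 and S100a4, a calcium-binding protein gene and the most abundant of these, -0.18, while the water channel gene Aqp1 had the largest positive value, 0.30, all with overlapping groups. Slc5a11, the other sodium-coupled myo-inositol transporter of the list, averaged 2.08 ± 0.701 FPKM in AngII and 2.47 ± 2.15 FPKM in Control (SD, n = 3 each). Hspa1a and its neighbour Hspa1b are near-identical copies, so their split is uncertain.

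Some classical osmoprotective genes of the kidney were near 0. Slc6a12, the betaine transporter, was listed at 0, 0.0898 and 0.0683 FPKM in AngII replicates 1 to 3 and at 0.250, 0.162 and 0.187 FPKM in Control replicates 1 to 3, under the limit for testing. Aqp2, the vasopressin-regulated water channel, was listed at 0 in all 6 libraries.

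Sgk1 (ENSMUSG00000019970, chromosome 10, 21882184 to 21999903, plus strand) was among the steadiest genes measured. It was at 42.2, 40.0 and 40.1 FPKM in AngII replicates 1 to 3 and at 40.0, 39.4 and 38.0 FPKM in Control replicates 1 to 3. Each AngII library was above each Control library, but the gap was 0.0573 FPKM. The mean was 40.8 ± 1.25 FPKM in AngII and 39.1 ± 0.998 FPKM in Control (SD, n = 3 each), with a log2 fold change of 0.06 (95% interval -0.07 to 0.19) that did not pass. It was 0.03 without AngII replicate 1 and 0.04 without Control replicate 3. The coefficient of variation over all 6 libraries was 3.41%, and 2.29% of genes tested had a smaller spread within groups on the log2 scale.

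Sgk1 can also be induced within minutes as an immediate early gene. Of the 19 genes of the immediate early and stress list, 17 had a negative log2 fold change in AngII (median -0.35), with 0 past limma and 0 at an unadjusted p under 0.05, and Sgk1 a positive one. Their part in the Sgk1 value was not tested. Fos was at 143, 358 and 164 FPKM in AngII replicates 1 to 3 and at 493, 575 and 151 FPKM in Control replicates 1 to 3. Sgk1 differed by at most 1.11 times between any of these libraries. Tsc22d3, which encodes the glucocorticoid-induced protein GILZ, was at 407, 434 and 452 FPKM in AngII replicates 1 to 3 and at 446, 519 and 376.8 FPKM in Control replicates 1 to 3, with overlap.

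The other SGK kinases and the partners of SGK1 were close to Control as well. Sgk3 was at 12.8, 12.6 and 12.9 FPKM in AngII replicates 1 to 3 and at 11.4, 12.1 and 12.4 FPKM in Control replicates 1 to 3, higher in each AngII library without passing (log2 fold change 0.09, adjusted p = 0.9999). Sgk1 exceeded Sgk3 by 3.29, 3.17 and 3.11 times in the AngII libraries and by 3.51, 3.26 and 3.06 times in the Control libraries. Sgk2 was listed at 0 in all 6 libraries. Rictor, the subunit that defines the mTOR complex acting on SGK1, averaged 8.55 FPKM over the 6 libraries, and Pdpk1, the PDK1 kinase, averaged 24.9 FPKM.

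Of the 14 tested genes of the SGK list other than Sgk1, 9 had a positive and 5 a negative log2 fold change, with 0 past limma, 0 at an unadjusted p under 0.05 and a median of 0.01. Ndrg1, a direct SGK1 substrate, had the smallest p and a log2 fold change of 0.13, with 10.1, 9.09 and 9.40 FPKM in AngII replicates 1 to 3 and 7.97, 8.41 and 9.50 FPKM in Control replicates 1 to 3. Mlst8, a subunit of both mTOR complexes, had a log2 fold change of 0.07. Foxo1, the factor that SGK1 phosphorylates in T cells and that restrains Il23r, had a log2 fold change of 0.003 with means of 97.6 ± 4.93 FPKM in AngII and 97.6 ± 7.70 FPKM in Control (SD, n = 3 each). Il23r, the interleukin 23 receptor of Th17 cells, was at 0.361, 0.209 and 0.274 FPKM in AngII replicates 1 to 3 and at 0.155, 0.208 and 0.173 FPKM in Control replicates 1 to 3. These values were under the limit for testing, and the nearest libraries of the 2 groups almost touched.

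**Figure D2:**
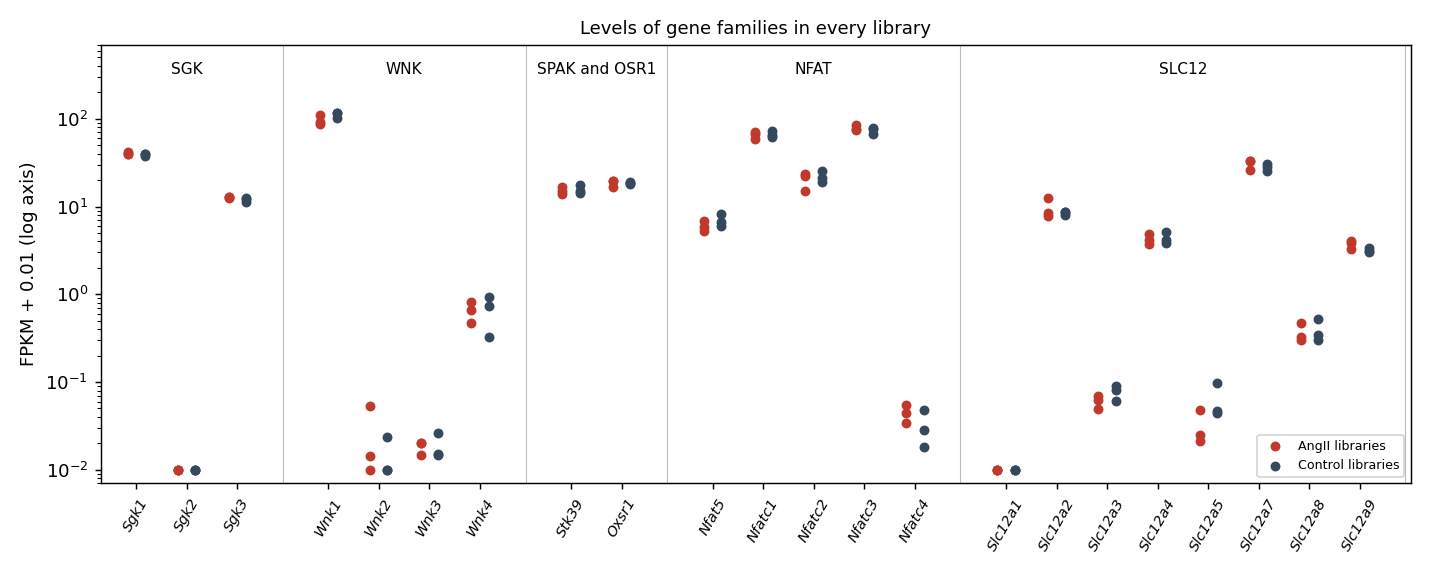
FPKM + 0.01 (log axis) of the SGK, WNK, SPAK and OSR1, NFAT and 8 SLC12 genes in every AngII library (left of each pair) and Control library (right). Wnk1 lies between 88.0 and 117.4 FPKM while Wnk2 and Wnk3 stay below 0.05 FPKM; points at 0.01 are genes listed at 0.

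Wnk1 (ENSMUSG00000045962, chromosome 6, 119923969 to 120038672, minus strand) had the highest mean of the 10 genes, 104.5 FPKM over the 6 libraries. It was at 92.7, 88.0 and 109.3 FPKM in AngII replicates 1 to 3 and at 117.4, 102.9 and 116.4 FPKM in Control replicates 1 to 3. AngII replicates 1 and 2 lay below all Control libraries and AngII replicate 3 lay within them. The mean was 96.7 ± 11.2 FPKM in AngII and 112.2 ± 8.10 FPKM in Control (SD, n = 3 each), a log2 fold change of -0.22 (95% interval -0.46 to 0.03) that did not pass. WNK1 was nearly the only WNK transcript: Wnk4 was at 0.467 to 0.807 FPKM in AngII and 0.317 to 0.912 FPKM in Control, and Wnk2 and Wnk3 stayed at or below 0.0436 FPKM.

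The kinases that WNK1 activates were present together at similar levels. Stk39, which encodes SPAK, was at 15.0, 16.8 and 13.8 FPKM in AngII replicates 1 to 3 and at 14.3, 17.4 and 14.9 FPKM in Control replicates 1 to 3. Oxsr1, which encodes OSR1, was at 19.5, 16.5 and 19.7 FPKM in AngII replicates 1 to 3 and at 19.0, 18.6 and 18.0 FPKM in Control replicates 1 to 3. Both genes overlapped between groups, with log2 fold changes of -0.03 (95% interval -0.28 to 0.22) for Stk39 and -0.001 (95% interval -0.20 to 0.20) for Oxsr1. The sign of both changed with single libraries. Stk39 was at 0.03 without AngII replicate 3 and at 0.05 without Control replicate 2. Oxsr1 was at 0.08 without AngII replicate 2, at 0.02 without Control replicate 1 and at 0.0003 without Control replicate 2.

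Oxsr1 exceeded Stk39 in 5 of the 6 libraries. The ratio of Oxsr1 to Stk39 was 1.30, 0.985 and 1.42 in the AngII libraries and 1.33, 1.07 and 1.21 in the Control libraries. Cab39, the MO25 scaffold that raises SPAK and OSR1 activity, averaged 92.5 FPKM over the 6 libraries, and Cab39l averaged 15.6 FPKM. Of the 5 tested adaptor genes, 4 had a positive and 1 a negative log2 fold change, with 0 past limma and 0 at an unadjusted p under 0.05. Klhl3, which hands WNK kinases to the Cul3 ubiquitin ligase, had 0.14, Klhl2 0.07 and Cab39l 0.05.

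Slc12a2, the NKCC1 cotransporter at the end of this cascade, was at 7.85, 12.5 and 8.37 FPKM in AngII replicates 1 to 3 and at 8.07, 8.75 and 8.73 FPKM in Control replicates 1 to 3. AngII replicate 2 stood above all other libraries, and the other AngII values lay around those of Control. The mean was 9.58 ± 2.56 FPKM in AngII and 8.52 ± 0.386 FPKM in Control (SD, n = 3 each), with a log2 fold change of 0.13 (95% interval -0.28 to 0.54) that became -0.06 without AngII replicate 2. AngII replicate 2 was also the library with the highest macrophage marker sum, 2525 FPKM. Control replicate 3 had the next highest, 1758 FPKM, with Slc12a2 at 8.73 FPKM. The 7 stromal and endothelial markers summed to 58.9 FPKM in AngII replicate 2, against 51.0 to 55.4 FPKM in the other libraries. Most of that sum was Pecam1, at 52.0 FPKM in AngII replicate 2 and 48.5 to 51.8 FPKM in the other libraries. The part of macrophages and stromal cells in the Slc12a2 value was not tested.

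Among the potassium and chloride exporters, Slc12a7 (KCC4) lay above the importer and Slc12a4 (KCC1) below it. Over the 6 libraries the means were 29.4 FPKM for Slc12a7 and 4.32 FPKM for Slc12a4, against 9.05 FPKM for Slc12a2. The FPKM of Slc12a7 was 4.25, 2.06 and 3.94 times that of Slc12a2 in AngII replicates 1 to 3 and 3.76, 3.25 and 2.89 times in Control replicates 1 to 3. The lowest ratio was again AngII replicate 2.

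The kidney and neuronal members of the family were nearly absent from the values. Slc12a1 was listed at 0 in all 6 libraries, and Slc12a3 and Slc12a5 stayed at or below 0.0864 FPKM. Of the 4 tested cotransporters other than Slc12a2, 3 had a positive and 1 a negative log2 fold change, with 0 past limma and 0 at an unadjusted p under 0.05. Slc12a9 had 0.19 and Slc12a7 0.12, both with overlapping groups.

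**Figure D3:**
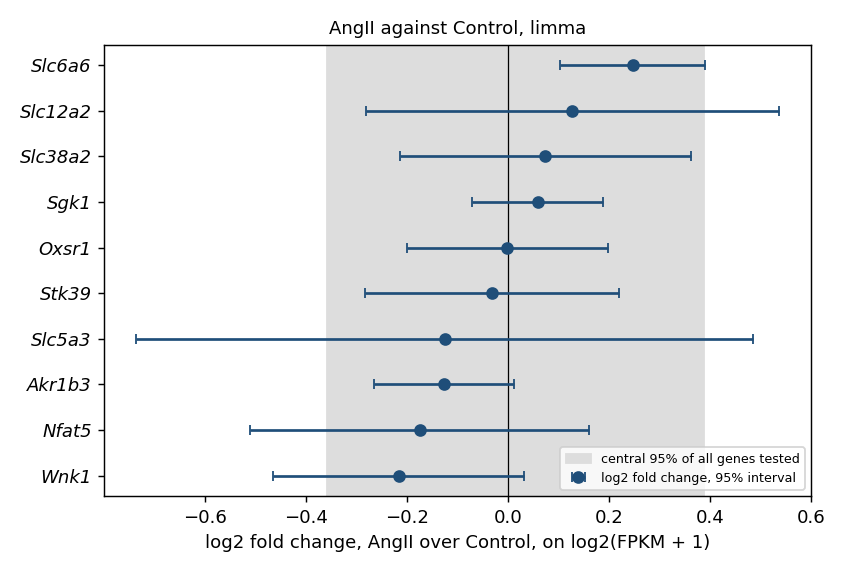
Log2 fold change of AngII over Control on the log2(FPKM + 1) scale (x axis) for the 10 genes, with 95% limma intervals not adjusted for the number of genes. The grey band holds the central 95% of all genes tested, -0.36 to 0.39; all 10 estimates lie inside it, and the Slc6a6 interval alone leaves out 0.

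Ordered by mean level over the 6 libraries, the 10 genes were Wnk1 (104.5 FPKM), Akr1b3 (102.6), Slc38a2 (48.5), Sgk1 (40.0), Slc6a6 (20.3), Oxsr1 (18.6), Stk39 (15.4), Slc12a2 (9.05), Nfat5 (6.45) and Slc5a3 (1.40 FPKM). FPKM is per length, so these levels can be set side by side. The place of Slc5a3 is less certain, because its fragments may not be fully separated from those of Mrps6. Neighbours whose library ranges did not overlap were Akr1b3 and Slc38a2 (2.12 times apart), Sgk1 and Slc6a6 (1.97 times), Stk39 and Slc12a2 (1.70 times), and Nfat5 and Slc5a3 (4.59 times). The other neighbours overlapped, and Wnk1 exceeded Akr1b3 in 3 of 6 libraries.

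The genes also differed in how much they varied between libraries. The spread within groups was low for Sgk1, Akr1b3 and Slc6a6, which had a smaller within-group SD on the log2 scale than 97.7%, 94.9% and 94.7% of genes tested. It was high for Slc12a2 and Slc5a3, where 80.9% and 89.6% of genes had a smaller one. In both, AngII replicate 2 lay far from the other AngII libraries, at 12.5 FPKM for Slc12a2 and 0.562 FPKM for Slc5a3. Their SD in Control was 0.386 and 0.196 FPKM. The groups of Sgk1, Akr1b3 and Slc6a6 did not overlap at differences of 4.25%, -8.45% and 19.7% between group means (AngII relative to Control). For Wnk1 the means differed by -13.8% with overlapping groups.

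Sodium and volume transport genes beyond the SLC12 family overlapped between the groups. Atp1b3, a beta subunit of the sodium pump that sets the gradient used by Slc6a6, Slc5a3, Slc38a2 and Slc12a2, averaged 458 FPKM over the 6 libraries. The epithelial sodium channel genes Scnn1a, Scnn1b and Scnn1g, known as SGK1-dependent in the kidney, stayed at or below 0.289 FPKM. Lrrc8a, the essential subunit of the volume-regulated anion channel that releases taurine, was at 15.8, 10.8 and 14.8 FPKM in AngII replicates 1 to 3 and at 15.1, 14.8 and 12.7 FPKM in Control replicates 1 to 3. Of 10 tested genes of this list, 6 had a positive and 4 a negative log2 fold change, with 0 past limma and 0 at an unadjusted p under 0.05. Slc9a3r1, a scaffold of sodium-proton exchangers, had a log2 fold change of -0.11, and Lrrc8d had 0.08.

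Among the system A and L amino acid transporters, 7 genes other than Slc38a2 were tested, 4 with a positive and 3 with a negative log2 fold change, and 0 passed limma or had an unadjusted p under 0.05. Slc1a5, a glutamine transporter, had 0.05, Slc7a6 had -0.03 and Slc7a5, the light chain of the leucine transporter, had -0.03. Over all 7 pathway lists, 65 genes other than the 10 were tested, 35 with a positive and 30 with a negative log2 fold change and a median of 0.003. None of the 65 passed limma, 1 (Tnf) had an unadjusted p under 0.05 (1.76% over all genes), and 2 (Sgk3 and Tnf) did not overlap between groups, 3.08% against 5.84% of all genes tested.

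**Figure D4:**
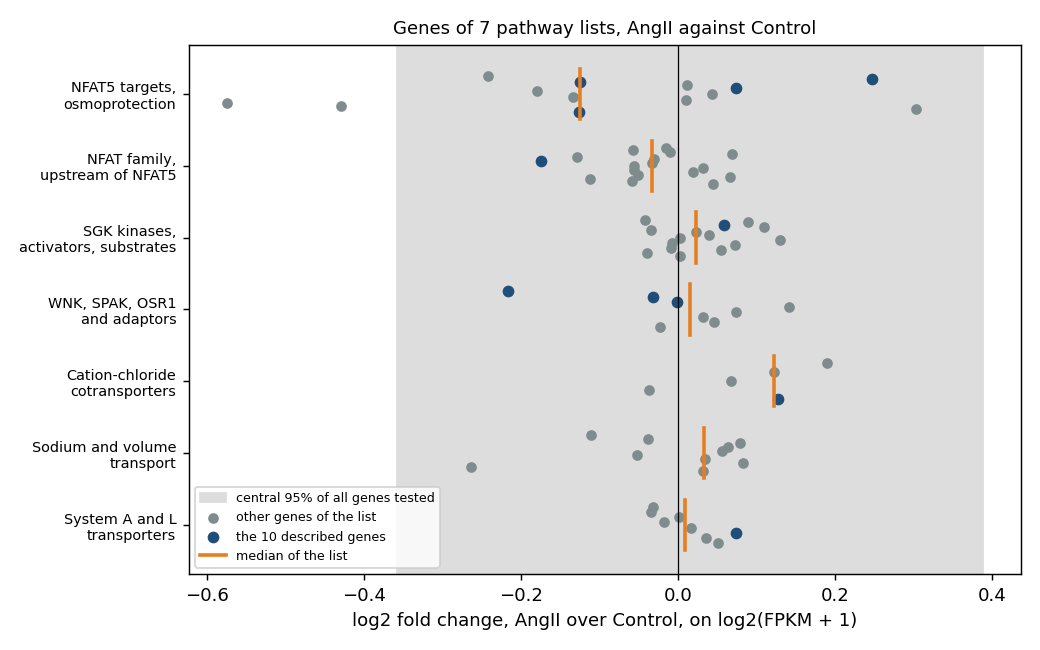
Log2 fold change of AngII over Control on the log2(FPKM + 1) scale (x axis) for the tested genes of 7 pathway lists, with the 10 described genes in blue, other genes in grey and the list median as an orange line; a gene in 2 lists appears in both. Medians lie between -0.13 (NFAT5 targets) and 0.12 (cation-chloride cotransporters), within the grey band that holds the central 95% of all genes.

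The genes whose levels followed Nfat5 most closely over the 6 libraries, among 7848 genes averaging 5 FPKM or more, were Desi1, Dync1i2 and Nfkb1 (Pearson r of log2(FPKM + 1) of 0.987, 0.975 and 0.972). For Sgk1 they were Dnm1l, Tsr1 and Gbe1 (0.991, 0.979 and 0.967). For Slc6a6 they were Pnpt1, Cc2d1b and Ivd (0.951, 0.947 and 0.930). With 6 libraries and a search over 7848 genes, such values describe the libraries only.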

How the data were processed

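Messenger RNA of splenic CD4+ T cells was measured in 6 libraries, 3 AngII and 3 Control. Per the submitters' processing notes the tools were Trimmomatic 0.32, TopHat2 2.1.1 and Cuffdiff on GRCm38.p3; for the Cuffdiff version and the annotation, nothing is given in the sources used here. FPKM values were deposited by the authors for 39171 genes per library, and a table with a p-value and q-value per gene from the authors' own comparison. Symbols and positions came from GENCODE M21 (GRCm38) by identifier.

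FPKM is not a count, so log2(FPKM + 1) was tested with limma 3.58.1 in R 4.3.3 (eBayes with trend, two-sided, Benjamini-Hochberg over genes averaging 1 FPKM or more), after a check of the code on simulated data. Fold changes on this scale understate low genes. FPKM holds no fragment counts, so no counting interval is given. The smallest steps of low genes put library depths at 0.935 to 1.04 times that of AngII replicate 1. A gene listed at 0 may be one whose estimate failed.

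The 10 genes and the lists were chosen with earlier results of these data known. Besides the 10, the genes named are up to 3 of smallest p per pathway list (some listed genes are not reported here), paralogs, genes of the most similar pattern and markers; other list genes were named after their values were seen. Replicate numbers did not pair the libraries. Alternatives were other pseudocounts, filters and scalings, eBayes without trend, the replicate number as a block and leaving out each library. Python 3.11.15, pandas 2.3.3, numpy 2.4.6 and matplotlib 3.10.9 were used.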

Additional observations from a re-analysis of the deposited data

How the results depend on the processing

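None of the 10 genes passed limma under any alternative run (0 in each, lowest adjusted p 0.632, for Slc6a6). The 4 genes past the threshold over all genes became 7 with no filter on low values, and 4 to 9 with a library left out (9 without AngII replicate 3, 8 without Control replicate 1, 7 without Control replicate 3). Leaving out each library moved the log2 fold change from 0.214 to 0.2826 for Slc6a6, -0.1613 to -0.1017 for Akr1b3, 0.0338 to 0.0734 for Sgk1, -0.2631 to -0.064 for Nfat5 and -0.307 to -0.1527 for Wnk1, with no change of sign. It changed sign for Slc5a3 (-0.2874 to 0.1416), Slc38a2 (-0.0195 to 0.1643), Slc12a2 (-0.0625 to 0.243), Stk39 (-0.1005 to 0.0467) and Oxsr1 (-0.0427 to 0.0767). With quantile normalization Oxsr1 was at 0.0036. The other alternatives changed no sign, and Slc5a3 could not be tested at a mean FPKM of at least 5. With the replicate number as a block 3 genes passed over all genes and 0 of the 10. Deviations of same-numbered libraries correlated at -0.0802, -0.0229 and -0.0352, so the number is only a name. Genes at an unadjusted limma p under 0.05 numbered 208 in the main run. With a library left out they numbered 116 (without Control replicate 2) to 912 (without AngII replicate 2), and 413 without Control replicate 3. The share of all genes under that p thus depended on single libraries. The number of libraries also limits what could be called: the 95% intervals of the 10 genes reached from 0.13 (Sgk1) to 0.61 (Slc5a3) to either side on the log2 scale.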
